A study of Sus scrofa with 12 samples.

Results

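Transcripts for proteins of DNA repair and of telomere maintenance were examined in the liver of suckling piglets. The piglets were with and without signs of swine inflammation and necrosis syndrome (SINS). In this syndrome tail, ears, teats and claws become inflamed and can turn necrotic. The genes were taken by their symbols, which cover the RAD, FANC, XRCC and ERCC families, the MSH mismatch factors, the break sensors, the base excision enzymes and the telomere proteins. Of 12307 genes that had at least 1 array transcript carrying that symbol alone, 52 were members by this rule, and each gene was represented by its transcript with the highest mean. Repair and telomere genes that the rule does not name are given after the members, from separate lists.

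Liver RNA from 12 piglets was hybridised to 1 Affymetrix Porcine Gene 1.0 ST array per animal, and all values are log2 signals on that array. The SINS high group comprised 6 piglets with the most severe clinical scores, and the SINS low group comprised 6 piglets with no signs or mild ones. All piglets were offspring of hybrid sows from Baden-Württemberg inseminated with Pietrain semen and were kept in the conventional stables of the same institution. No experimental treatment is described. The piglets were scored and sampled on day 3 of life. Before the liver was taken, all were anaesthetised with ketamine and azaperone and then killed with pentobarbital. The labels give mixed sex for both groups, so the sex of single piglets and any shared litters are not known here. The groups are extremes chosen by score from a larger set of piglets, and a piece of whole liver was taken, so the RNA of all its cell types was measured together.

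Cells repair their DNA by several routes. Double-strand breaks are rejoined directly by end joining or copied from the sister chromatid by homologous recombination, the Fanconi anaemia proteins release replication forks stalled at cross-links, and base excision and nucleotide excision repair replace single damaged bases and bulky adducts. Telomere proteins keep chromosome ends from being treated as breaks. Recombination and the Fanconi anaemia pathway act mainly in cells that copy their DNA, and the liver of a newborn still grows and holds blood-forming cells.

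In the SINS high group 10 of the 52 members (19.2%) were down-regulated, namely FANCM, FANCD2, RAD54L, XRCC2, RAD51C, MRE11, APEX1, UNG, PARP2 and PINX1. Down-regulated and up-regulated denote a fold change (FC) above 1.3 with an unadjusted p below 0.05 in the limma comparison of the groups. These are the thresholds of the study, applied here to the p of limma in place of that of the methods' t-test. Over all 12307 genes, 3.80% were down-regulated by this filter and 2.30% were up-regulated. No member was up-regulated. The number of down-regulated members turned on single piglets, as it was 5 without SINS high replicate 3 (2.78% of all genes) or without SINS low replicate 6 (2.72%), 17 without SINS high replicate 6 (6.20%) and 18 without SINS low replicate 4 (5.09%). With the methods' t-test it was 6 (2.99%), as FANCD2, UNG, PINX1 and PARP2 missed the p threshold. It was 16 with array quality weights (4.12%) and 3 at a fold change above 1.5 (1.19%). The log2(FC), given throughout as SINS high minus SINS low, was below 0 for 41 of the 52 members (78.8%), against 49.3% of all genes. The median log2(FC) was −0.18 over the members, with a range of −0.76 to 0.33, and 0.00 over all genes.

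No member held after correction for the number of transcripts. With Benjamini-Hochberg adjustment over all 25388 transcripts, limma gave 0 transcripts an adjusted p below 0.05, although 2884 had an unadjusted p below 0.05, and the methods' t-test also gave 0. The smallest limma adjusted p of a member was 0.282, for FANCM, and the largest among the 10 down-regulated members was 0.440. At an unadjusted p below 0.05 without a fold change threshold, 13 members were lower and 1, XPC, was higher in the SINS high group, against 7.98% and 5.16% of all genes. For 0 of the 52 members did the groups separate completely, against 0.244% of all genes with every SINS high piglet below every SINS low piglet. In whole tissue, fewer cells of a type and less RNA per cell cannot be told apart.

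**Figure D1:**
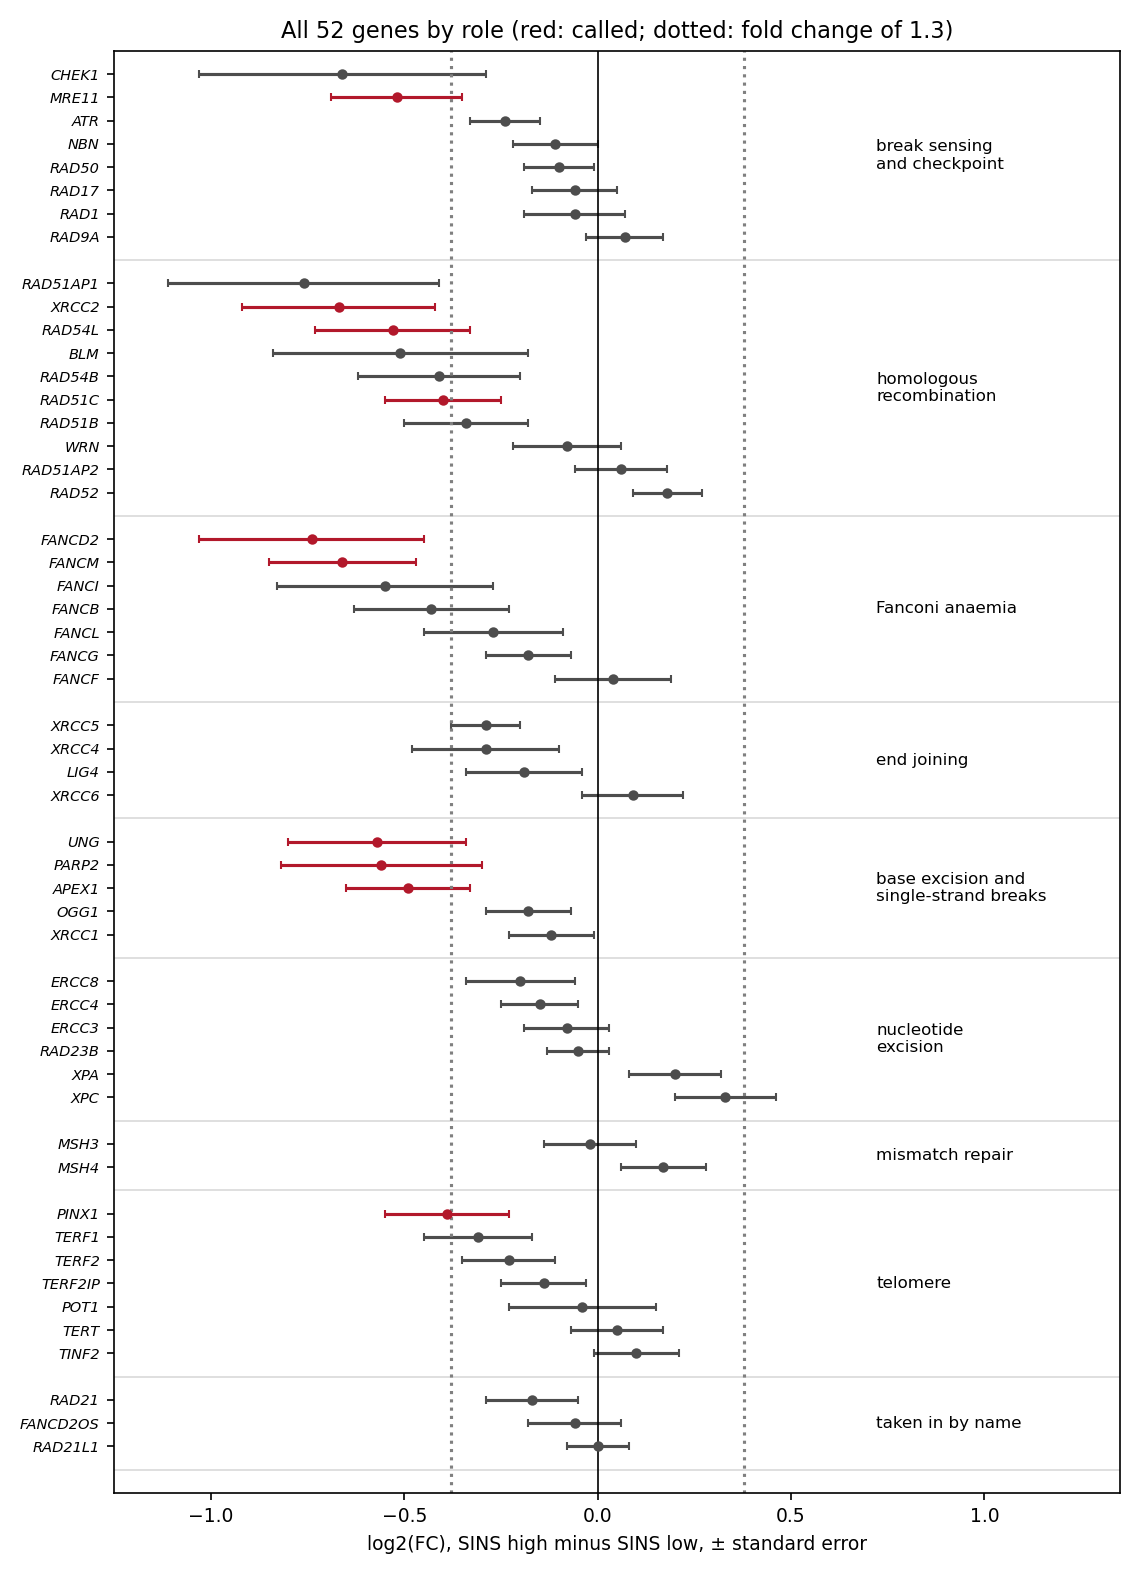
The log2 fold change (SINS high minus SINS low, horizontal axis) of each of the 52 members is drawn as a point with a bar of 1 standard error either side, grouped by role, with the 10 down-regulated (called) members in red and dotted lines at a fold change of 1.3. Most points lie left of 0, and RAD51AP1 of recombination and FANCD2 of the Fanconi anaemia pathway lie furthest to the left, while nucleotide excision repair has a median of −0.07.

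Of the 7 Fanconi anaemia genes, 2 were down-regulated and the median log2(FC) was −0.43. FANCM, the translocase that recognises stalled forks and anchors the Fanconi core complex, had log2 signals of 3.54, 3.89 and 4.35 (lowest, median and highest) in the SINS high piglets, against 3.78, 4.68 and 5.06 in the SINS low piglets. All 6 SINS high piglets lay below the SINS low median, and only SINS low replicate 4 fell among them. Its log2(FC) of −0.66 (SE 0.19) was a 1.59-fold lower level, with an exact permutation p of 0.0152. FANCD2, which is ubiquitinated on chromatin and marks the start of cross-link repair, had log2 signals of 4.0, 4.80 and 5.62 in the SINS high piglets, against 4.88, 5.48 and 6.14 in the SINS low piglets. The groups overlapped more widely, as SINS high replicate 6 was above the SINS low median and SINS low replicate 4 was the lowest of its group. The log2(FC) of −0.74 (SE 0.29) had an exact permutation p of 0.0563, and FANCD2 missed the filter without SINS high replicate 3 (−0.60) or 5 (−0.58) or SINS low replicate 2 (−0.60) or 6 (−0.66).

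FANCI, the partner of FANCD2 in the same clamp, had log2 signals of 3.64, 4.47 and 5.03 in the SINS high piglets, against 4.08, 5.04 and 5.6 in the SINS low piglets. Its log2(FC) of −0.55 (SE 0.28, 95% interval −1.15 to 0.05) missed the p threshold. It passed without SINS high replicate 6 (−0.68) or SINS low replicate 4 (−0.73). FANCI also passed with array weights (−0.66) and with the replicate number as a block (−0.55). FANCB, a subunit of the core complex, had log2 signals of 2.33, 3.08 and 3.22 in the SINS high piglets, against 2.71, 3.48 and 3.82 in the SINS low piglets. Its log2(FC) of −0.43 (SE 0.20) missed the p threshold. It passed with array weights (−0.50), further quantile normalisation (−0.46), median centring (−0.45) and the replicate block (−0.43), and when any 1 of SINS high replicates 1 (−0.48), 4 (−0.48) and 6 (−0.49) or SINS low replicates 4 (−0.56) and 5 (−0.51) was left out. The remaining core members had a log2(FC) of −0.27 for FANCL, the ubiquitin ligase, −0.18 for FANCG and 0.04 for FANCF. FANCD2OS, which the rule takes in by its name, lies next to FANCD2 in the RefSeq annotation of Sscrofa11.1 with 0 genes between them. Its log2(FC) was −0.06 (SE 0.12) and its response was not tested against that of FANCD2.

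Homologous recombination had 3 down-regulated genes of 10 and a median log2(FC) of −0.40. RAD54L, a motor protein that remodels the joint between a broken strand and its template, had log2 signals of 3.63, 4.27 and 4.32 in the SINS high piglets, against 4.06, 4.74 and 5.09 in the SINS low piglets. All SINS high piglets were below the SINS low median, and 4 SINS low piglets were above every SINS high piglet. This gave a log2(FC) of −0.53 (SE 0.20), with an exact permutation p of 0.0411. XRCC2, which acts in the repair of double-strand breaks, had log2 signals of 4.08, 5.19 and 5.88 in the SINS high piglets, against 5.54, 5.68 and 6.46 in the SINS low piglets. Here 4 SINS high piglets lay below every SINS low piglet, with replicate 5 the lowest and replicates 2 and 6 inside the SINS low range. The log2(FC) of −0.67 (SE 0.25, exact permutation p = 0.0303) ranged between −0.82 without SINS high replicate 6 and −0.46 without SINS high replicate 5.

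RAD51C, which acts in the same route, had log2 signals of 4.14, 4.39 and 4.53 in the SINS high piglets, against 4.23, 4.82 and 5.14 in the SINS low piglets. The SINS high piglets were close together, and 4 SINS low piglets were above all of them. The log2(FC) was −0.40 (SE 0.15), with an exact permutation p of 0.0455. This value was near the fold change threshold, and RAD51C missed the filter without SINS high replicate 3 (−0.35) or 5 (−0.36) or SINS low replicate 1 (−0.33), 2 (−0.31) or 6 (−0.36).

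RAD51AP1, which stimulates the pairing of a broken strand with its template, had the lowest log2(FC) of the 52 members, −0.76 (SE 0.35), and missed the p threshold narrowly. Its log2 signals were 3.54, 4.80 and 5.31 in the SINS high piglets, against 4.12, 5.66 and 5.99 in the SINS low piglets. SINS low replicate 4 was the lowest of its group and far below that group's median, and without it the log2(FC) was −1.0 and passed the filter. RAD51AP1 also passed without SINS high replicate 1 (−0.85) or 6 (−0.91) or SINS low replicate 5 (−0.89), and under 5 processing alternatives, with values of −0.87 with array weights and between −0.77 and −0.76 with further quantile normalisation, median centring, the replicate block and the mean of all transcripts. BLM, the helicase that dissolves joined DNA molecules, had log2 signals of 3.24, 3.86 and 4.92 in the SINS high piglets, against 3.55, 4.76 and 5.27 in the SINS low piglets. The groups overlapped over most of their range. BLM had a log2(FC) of −0.51 (SE 0.33) on its brightest transcript and −0.82 (SE 0.40) on its other transcript, neither past the filter. It passed without SINS high replicate 6 (−0.69) or SINS low replicate 4 (−0.70).

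RAD54B, a relative of RAD54L, had a log2(FC) of −0.41 (SE 0.21) and −0.35 (SE 0.18) on its 2 transcripts, and RAD51B, which works together with RAD51C, had −0.34 (SE 0.16). RAD54B passed the filter with array weights (−0.57) or the replicate block (−0.41) and without SINS high replicate 6 (−0.49) or SINS low replicate 4 (−0.55). RAD51B passed with array weights (−0.40) and without SINS high replicate 1 (−0.43) or 6 (−0.41) or SINS low replicate 4 (−0.44) or 5 (−0.39). RAD52, which anneals single strands, had a log2(FC) of 0.18 (SE 0.09, 95% interval −0.02 to 0.38). The helicase WRN had log2 signals of 6.08, 6.83 and 6.95 in the SINS high piglets, against 6.61, 6.80 and 7.05 in the SINS low piglets, and a log2(FC) of −0.08 (SE 0.14). RAD51AP2 was at 0.06.

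**Figure D2:**
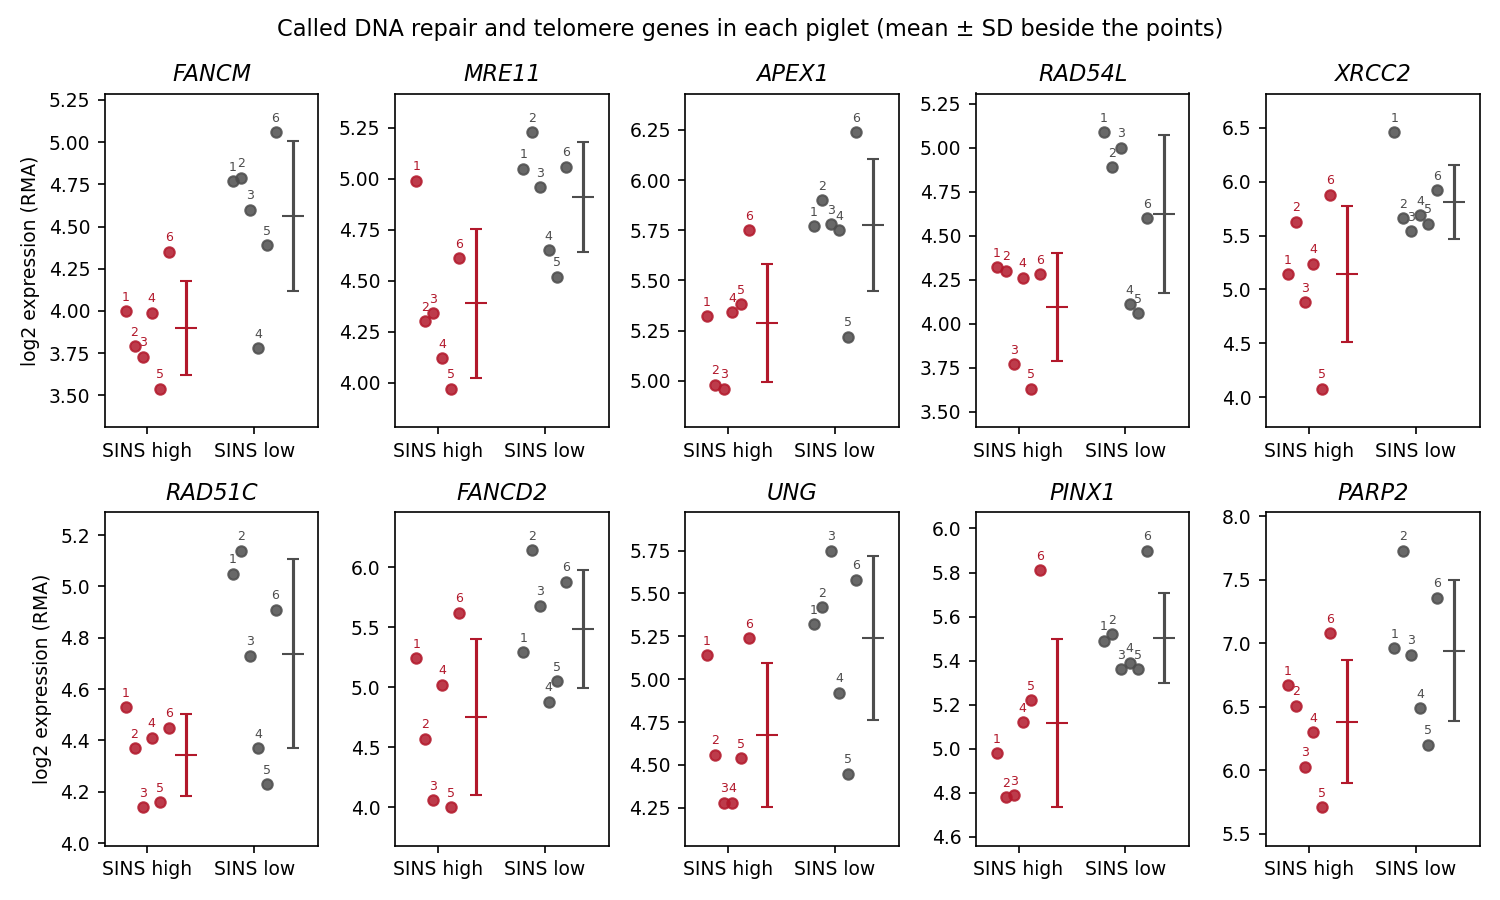
Each panel plots the log2 signal (vertical axis) of 1 down-regulated member in the 6 SINS high piglets (left) and the 6 SINS low piglets (right), with points for single piglets and the mean and SD of each group. In every panel the SINS high mean lies below the SINS low mean and the 2 clouds of points overlap.

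Base excision and single-strand break repair held 3 down-regulated genes of 5, and all 5 had a log2(FC) below 0, with a median of −0.49. UNG, the glycosylase that removes uracil from DNA, had log2 signals of 4.28, 4.55 and 5.24 in the SINS high piglets, against 4.45, 5.37 and 5.75 in the SINS low piglets. All 6 SINS high piglets were below the SINS low median. With a log2(FC) of −0.57 (SE 0.23) and an exact permutation p of 0.0606, UNG missed the filter without SINS high replicate 3 (−0.49) or 4 (−0.49) or SINS low replicate 3 (−0.46) or 6 (−0.50). APEX1 is the endonuclease that cuts the DNA strand at the site left by such glycosylases. Its log2 signals were 4.96, 5.33 and 5.75 in the SINS high piglets, against 5.22, 5.78 and 6.24 in the SINS low piglets. SINS low replicate 5 was the only piglet of its group that lay well inside the SINS high range. The log2(FC) was −0.49 (SE 0.16), a 1.40-fold lower level, with an exact permutation p of 0.0346.

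PARP2, which senses nicks and attaches ADP-ribose chains, had log2 signals of 5.71, 6.4 and 7.08 in the SINS high piglets, against 6.20, 6.94 and 7.73 in the SINS low piglets. The 2 groups overlapped over most of their range. Its log2(FC) of −0.56 (SE 0.26, exact permutation p = 0.102) had the largest p of the 10, and PARP2 missed the filter in 8 of the 12 comparisons that left out 1 piglet. These were the comparisons without SINS high replicate 2 (−0.58), 3 (−0.49), 4 (−0.54) or 5 (−0.42) and without SINS low replicate 1 (−0.55), 2 (−0.40), 3 (−0.56) or 6 (−0.47). The glycosylase OGG1, which removes oxidised guanine, had a log2(FC) of −0.18 (SE 0.11). The scaffold XRCC1 was at −0.12 (SE 0.11).

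Among the 8 genes of break sensing and checkpoint signalling, MRE11 was down-regulated and 7 had a log2(FC) below 0, with a median of −0.10. MRE11, the nuclease of the complex that binds broken ends, had log2 signals of 3.97, 4.32 and 4.99 in the SINS high piglets, against 4.52, 5.0 and 5.23 in the SINS low piglets. Of the SINS high piglets, 4 lay below every SINS low piglet, and replicate 1 was the highest. The log2(FC) was −0.52 (SE 0.17), a 1.44-fold lower level, with an exact permutation p of 0.0238. The other subunits of the same complex had a log2(FC) of −0.10 (SE 0.09) for RAD50 and −0.11 (SE 0.11) for NBN. The log2 signals of RAD50 were 7.16, 7.28 and 7.54 in the SINS high piglets, against 7.23, 7.38 and 7.58 in the SINS low piglets, with the groups overlapping almost fully. Whether MRE11 differed from RAD50 or NBN in its response was not tested.

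ATR, the kinase that responds to stalled forks, showed a small difference. Its log2 signals were 4.88, 5.16 and 5.21 in the SINS high piglets, against 5.20, 5.32 and 5.49 in the SINS low piglets. Of the SINS high piglets, 5 were below every SINS low piglet, and the groups overlapped by a narrow margin. The log2(FC) of −0.24 (SE 0.09) had an exact permutation p of 0.00649, the smallest of all members, but its fold change of 1.18 was below the threshold. CHEK1, the kinase that ATR activates, had a log2(FC) of −0.66 (SE 0.37, 95% interval −1.45 to 0.13) with widely scattered values of 2.65, 3.88 and 4.87 in the SINS high piglets, against 3.32, 4.60 and 5.02 in the SINS low piglets. It passed the filter with array weights (−0.77) and without SINS high replicate 6 (−0.89) or SINS low replicate 4 (−0.87). RAD9A and RAD1, subunits of the checkpoint clamp, were at 0.07 and −0.06, and RAD17, which loads that clamp, was at −0.06.

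No gene of the 4 in end joining passed the filter. XRCC5 encodes the larger subunit of the Ku dimer that caps broken ends, and its log2 signals were 5.02, 5.16 and 5.40 in the SINS high piglets, against 5.27, 5.48 and 5.6 in the SINS low piglets. Of the SINS high piglets, 5 lay below every SINS low piglet. The log2(FC) was −0.29 (SE 0.09), with an exact permutation p of 0.0130 and a fold change of 1.22. XRCC6, the other Ku subunit, had a log2(FC) of 0.09 (SE 0.13, 95% interval −0.19 to 0.38). The ligase LIG4 and its partner XRCC4, which seal the ends, were at −0.19 (SE 0.15) and −0.29 (SE 0.19).

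Nucleotide excision repair had 0 of 6 genes past the filter and a median log2(FC) of −0.07. XPC, which finds the distorted helix, was the member with the highest log2(FC), 0.33 (SE 0.13, exact permutation p = 0.0390). Its log2 signals were 5.90, 6.37 and 6.59 in the SINS high piglets, against 5.68, 6.00 and 6.16 in the SINS low piglets. It was up-regulated without SINS high replicate 3 (0.39), where 1.85% of all genes were up-regulated, and without SINS high replicate 6 (0.41), the lowest of its group, where 3.92% were. XPA, which verifies the lesion, had a log2(FC) of 0.20 (SE 0.12). RAD23B, the partner of XPC, had log2 signals of 8.14, 8.20 and 8.25 in the SINS high piglets, against 8.07, 8.25 and 8.37 in the SINS low piglets. RAD23B differed by −0.05 (SE 0.08), the helicase ERCC3 by −0.08 on each of its 2 transcripts, the nuclease subunit ERCC4 by −0.15 (SE 0.10) and ERCC8, which acts on lesions in transcribed genes, by −0.20 (SE 0.14). Mismatch repair was covered by MSH3, a subunit of a mismatch sensor, at −0.02, and by MSH4, known for its role in meiotic crossing over. The log2 signals of MSH4 were 3.32, 3.50 and 3.84 in the SINS high piglets, against 3.12, 3.34 and 3.71 in the SINS low piglets, with a log2(FC) of 0.17 (SE 0.11).

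Of the 7 telomere genes, PINX1 was down-regulated and the median log2(FC) was −0.14. PINX1, a nucleolar protein that binds and inhibits telomerase, had log2 signals of 4.78, 5.05 and 5.81 in the SINS high piglets, against 5.36, 5.44 and 5.90 in the SINS low piglets. Of the SINS high piglets, 5 lay below every SINS low piglet, and the exception was replicate 6. The log2(FC) was −0.39 (SE 0.16), with an exact permutation p of 0.0628, and PINX1 missed the filter without SINS high replicate 1 (−0.36), 2 (−0.32) or 3 (−0.32) or without SINS low replicate 6 (−0.31). TERF1, which binds the double-stranded telomere repeat, had log2 signals of 5.40, 5.68 and 5.91 in the SINS high piglets, against 5.52, 5.99 and 6.28 in the SINS low piglets. Its log2(FC) of −0.31 (SE 0.14, exact permutation p = 0.0541) was below the fold change threshold, and it passed without SINS low replicate 4 (−0.40).

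TERF2, which binds the same repeat, had log2 signals of 7.24, 7.38 and 7.72 in the SINS high piglets, against 7.31, 7.68 and 7.90 in the SINS low piglets. Among the members, the telomere cap genes other than TERF1 were TERF2, TERF2IP, TINF2 and POT1. The log2(FC) was −0.23 (SE 0.12) for TERF2, −0.14 (SE 0.11) for its partner TERF2IP and 0.10 (SE 0.11) for the bridging subunit TINF2. For POT1, which covers the single-stranded end, it was −0.04 (SE 0.19). TERT, the catalytic subunit of telomerase, had log2 signals of 3.0, 3.30 and 3.64 in the SINS high piglets, against 3.03, 3.26 and 3.56 in the SINS low piglets. The groups lay almost on top of each other, and the difference was 0.05 (95% interval −0.21 to 0.30). All of these signals were below the medians of the arrays (4.36 to 4.42), and whether TERT was detected was not tested. The rule also took in RAD21, a cohesin subunit, with log2 signals of 6.88, 7.28 and 7.38 in the SINS high piglets, against 7.11, 7.44 and 7.59 in the SINS low piglets. Its log2(FC) was −0.17 and −0.20 on its 2 transcripts. Last came RAD21L1, its counterpart in germ cells, at 0.00 (SE 0.08). The transcripts of RAD21L1, RAD51AP2 and FANCD2OS were among the dimmest 25% on the arrays, and whether they were detected was not tested.

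**Figure D3:**
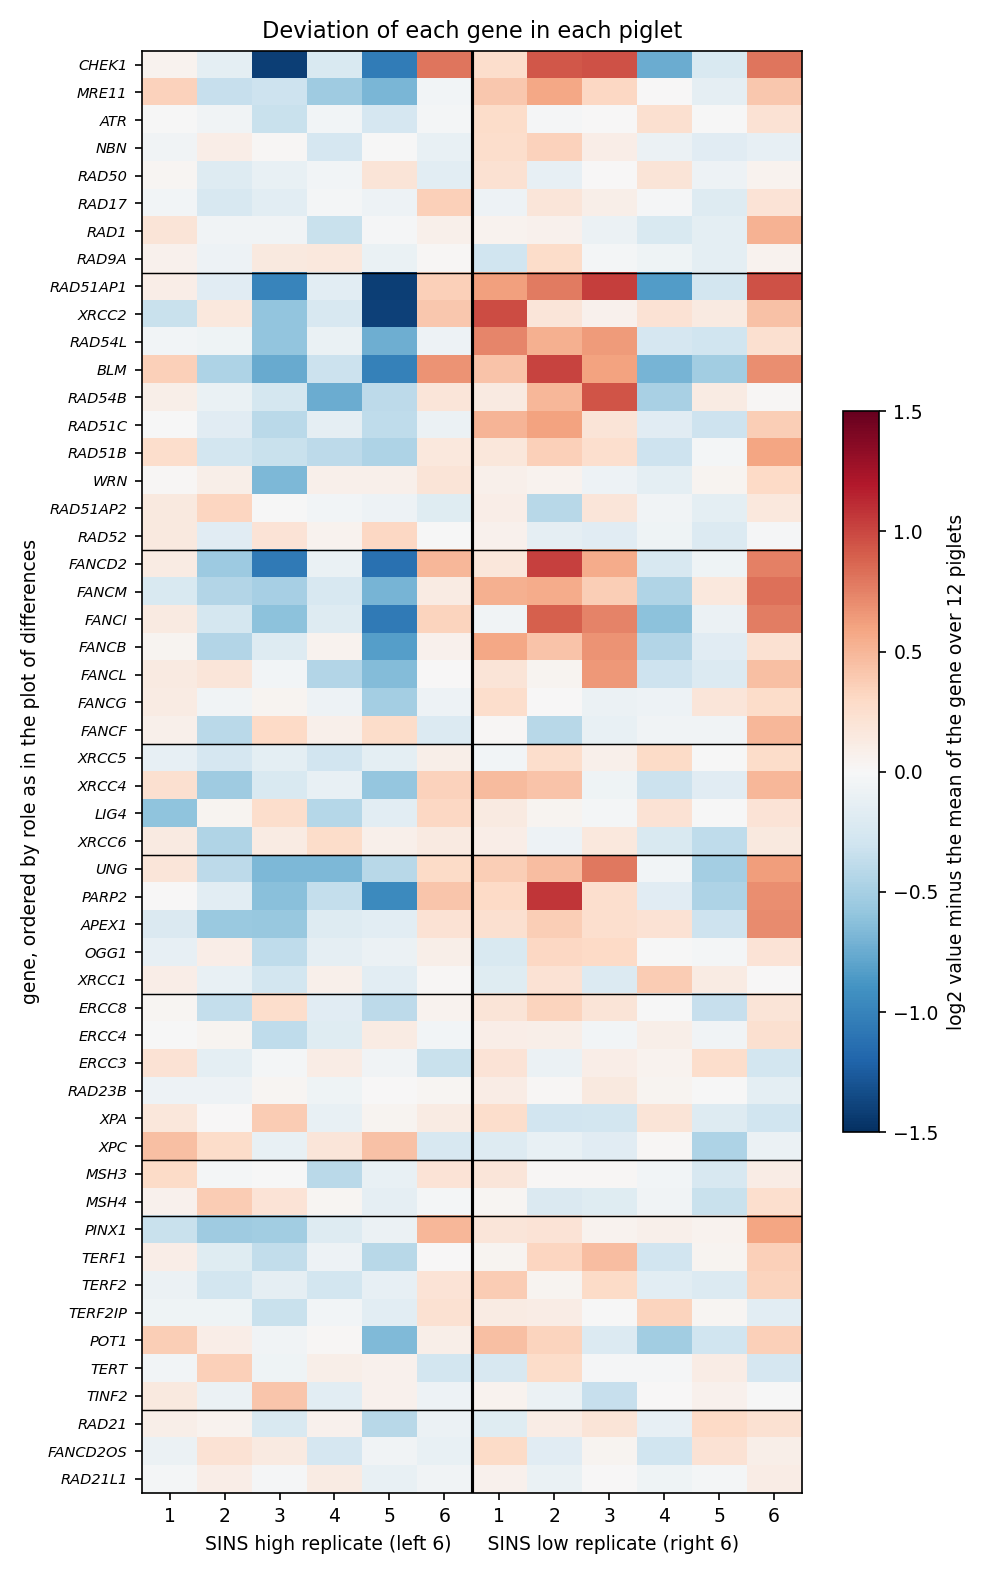
The heat map shows, for each member (vertical, ordered by role) and each piglet (horizontal, SINS high left and SINS low right), the log2 signal minus the mean of that member over all 12 piglets. SINS high replicates 3 and 5 and SINS low replicate 4 are low across many recombination and Fanconi anaemia genes, and SINS high replicate 6 is above the mean for most of them.

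Some of the members varied together from piglet to piglet within each group. After subtraction of the group means, 63.4% of the variance of the 52 members fell on 1 axis, against 7.13% on the next, over 10 independent deviations. The first axis of all genes held 24.5%. With each gene scaled to the same variance, the share was 36.5% for the members and 18.3% for all genes. CHEK1, RAD51AP1, BLM, FANCD2 and FANCI had the largest weights on this axis (0.38, 0.37, 0.35, 0.29 and 0.28), which made up 56.1% of the squared weights, and 12 members had a weight at or below 0. SINS high replicate 5 and SINS low replicates 4 and 5 lay at its low end and SINS high replicate 6 at its high end. The median within-group SD was 0.35 for recombination genes and 0.37 for Fanconi anaemia genes, against 0.21 for nucleotide excision repair and 0.22 over all genes. Averaged over the 17 recombination and Fanconi anaemia genes, the deviation from the mean of all piglets was −0.59 to 0.14 in the SINS high group, against −0.29 to 0.45 in the SINS low group.

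The cell division (proliferation) markers also varied between piglets, and their correlation with these genes was not computed. Of 30 markers listed, 14 were measured, and all 14 had a log2(FC) below 0, with a median of −0.54. Only 3 (21.4%, against 3.80% of all genes) were down-regulated, namely MCM2, MCM4 and CDC6 of the replication licensing machinery. The mean deviation of the 14 markers was −0.26 ± 0.65 for SINS high and 0.26 ± 0.71 for SINS low (SD, n = 6 each). The difference between the groups was thus smaller than the spread within each. In SINS low replicate 5, which lay at the low end of the axis of the members, the marker mean was 0.27. The 3 piglets with the lowest marker mean were SINS high replicates 3 and 5 and SINS low replicate 4. The same piglets were the 3 lowest of all 12 for 6 members (11.5%), against 1.79% of all genes, and these members were BLM, CHEK1, FANCI, FANCM, RAD51AP1 and TERF1. At least 2 of these 3 piglets were among the 3 lowest for 42.3% of the members, against 15.9% of all genes. This held for 8 of the 10 recombination genes, 5 of the 7 Fanconi anaemia genes and 0 of the 6 nucleotide excision repair genes. The ranks were taken over all 12 piglets without subtraction of the group means. SINS high replicates 3 and 5 are among these piglets, so the counts favour genes that were lower in that group.

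**Figure D4:**
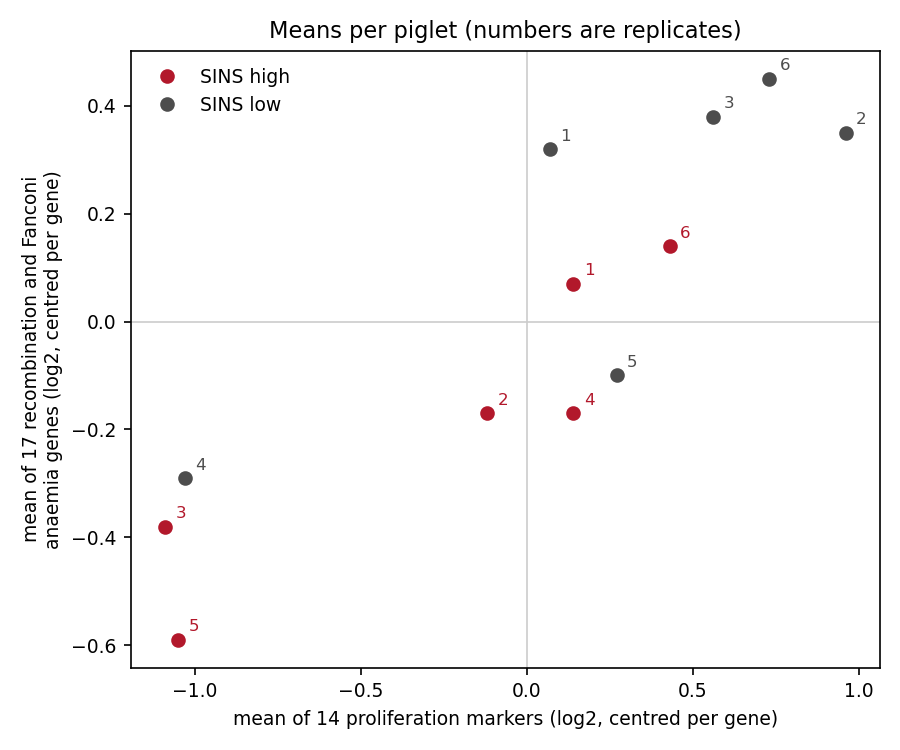
The mean deviation (log2) of the 14 cell division markers (proliferation markers, horizontal axis) is plotted against that of the 17 recombination and Fanconi anaemia genes (vertical axis), with 1 numbered point per piglet and the SINS high and SINS low groups in different colours. SINS high replicates 3 and 5 and SINS low replicate 4 sit at the left, and piglets of both groups spread along the horizontal axis.

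With the mean of the division markers as a covariate in the limma comparison, 3 of the 10 down-regulated members still passed the filter, namely FANCM (−0.42), MRE11 (−0.38) and APEX1 (−0.39). Over all genes 2.28% were down-regulated in that comparison. The other 7 missed it, with a log2(FC) between −0.49 for XRCC2 and −0.25 for PARP2 and RAD51C. No further member passed in either direction, against 1.76% of all genes up-regulated, and 42 of the 52 members had a log2(FC) closer to 0. The part of cell division in the differences was not tested.

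**Figure D5:**
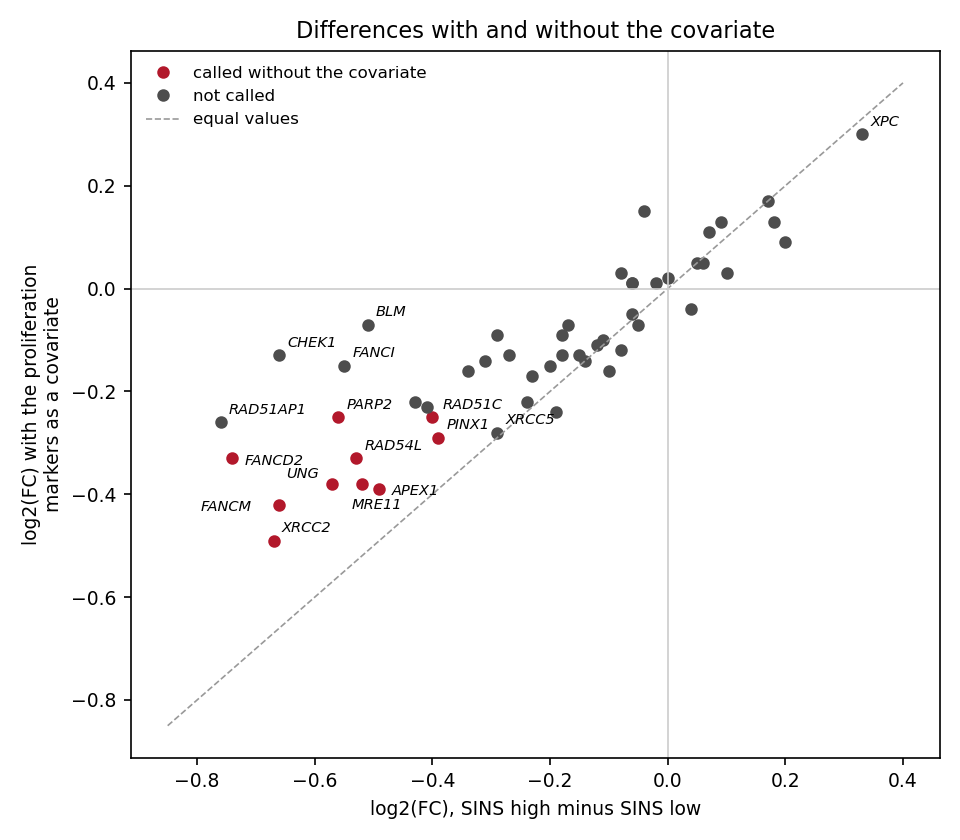
The log2 fold change of each member without a covariate (horizontal axis) is plotted against that with the mean of the cell division markers as a covariate (vertical axis), with called members in red and the line of equality dashed. FANCM, MRE11 and APEX1 remain beyond the fold change threshold with a p below 0.05, and most other members lie between the line and 0.

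Repair genes outside the naming rule were measured for 67 of 92 genes listed. Down-regulation was found for 11 (16.4%) and up-regulation for 0, against 3.80% and 2.30% of all genes. The median log2(FC) was −0.15. The first by p was UBE2N, a ubiquitin-conjugating enzyme of post-replication repair, at −0.75 (SE 0.20, exact permutation p = 0.0130). DCLRE1B, a nuclease that trims telomere ends, was at −0.49 (SE 0.16). DNA2, which resects broken ends, was at −0.90 (SE 0.31). APEX2, a relative of APEX1, was at −0.49 (SE 0.17). The other 7 were RMI1 and RMI2, partners of BLM, the flap nuclease FEN1, the glycosylase NEIL3, the exonuclease EXO1, the helicase RECQL and USP1, which removes ubiquitin from FANCD2.

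Against 3.80% of all genes, 3 of 13 measured telomerase and telomere factors outside the rule (23.1%) were down-regulated. These were DKC1, GAR1 and NHP2, proteins of the H/ACA particle that holds telomerase RNA as well as guide RNAs for ribosomal RNA. DKC1 had a log2(FC) of −0.56 (SE 0.15), GAR1 of −0.69 (SE 0.21) and NHP2 of −0.45 (SE 0.19). NOP10, another protein of the particle, at −0.16 (SE 0.08), and its assembly factor NAF1, at −0.38 (SE 0.12), did not pass the filter. The median of the 13 was −0.12. Of 15 measured p53 target genes, which respond to DNA damage signals, 0 were up-regulated, against 2.30% of all genes. Down-regulated was 1 (6.67%, against 3.80% of all genes), TIGAR, a phosphatase of sugar metabolism, at −0.47 (SE 0.19). The median of these targets was 0.02, with −0.33 for the cell cycle inhibitor CDKN1A and 0.08 for MDM2, the ubiquitin ligase of p53.

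Markers of other liver cells were read for both groups. The hepatocyte markers marked the tissue as liver and did not pass the filter, with 0 of 6 and a median log2(FC) of 0.00, and albumin (ALB) averaged 12.67 ± 0.05 for SINS high and 12.66 ± 0.07 for SINS low (SD, n = 6 each). Erythroid precursor markers were up-regulated for 6 of 9, against 2.30% of all genes, with a median log2(FC) of 0.72. Of these 9, TFRC alone had a log2(FC) below 0, at −0.74 (SE 0.42). The mean deviation of the 9 per piglet was −0.15 to 0.73 in the SINS high group, against −0.78 to 0.26 in the SINS low group. Kupffer cell markers were up-regulated for 3 of 8 (CSF1R, VSIG4 and TIMD4), with a median log2(FC) of 0.31. MARCO alone was below 0, at −0.23 (SE 0.21). The mean deviation of the 8 was −0.18 to 0.54 in the SINS high group, against −0.44 to 0.11 in the SINS low group. For sinusoidal endothelium 1 of 8 markers (TEK) was up-regulated, and all 8 were above 0, with a median of 0.27. For granulocytes 1 of 4 (MPO) was up-regulated, and all 4 were above 0, with a median of 0.49. None passed of 4 for bile duct cells (median −0.10), 7 for stellate cells (−0.03) and 5 for lymphocytes (0.09). The part of these cells in the differences of the repair genes was not tested.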

How the data were processed

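Total liver RNA of 12 piglets, 6 SINS high and 6 SINS low, was hybridised to 1 array each. The authors summarised the probes with RMA in Expression Console and deposited log2 values, which were used without further scaling. RMA draws the distributions of the arrays together. Median log2 values per array were 4.36 to 4.42 and correlations between arrays 0.964 to 0.988. Of 25388 transcripts, 13257 had 1 gene symbol in the platform annotation, 427 had several and 11704 had none. The 56 transcripts matching the naming rule gave 52 genes, of which 4 had more than 1 transcript. All 52 symbols equalled those of RefSeq by gene ID. The number of arrays limits the precision.

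The SINS high minus SINS low difference was fitted for every transcript in R 4.3.3 (limma 3.58.1, functions lmFit and eBayes), with group as the sole term. Called genes met the thresholds of the study, an unadjusted p below 0.05 together with a fold change exceeding 1.3, with the p of limma in place of the t-test of the methods, and p-values were adjusted after Benjamini and Hochberg over all transcripts. Exact permutation tests were two-sided over all 924 assignments of the piglets, with a smallest possible p of 0.00216. In simulated data, the filter recovered 77.0% of transcripts with a log2 shift of 0.5 and 99.0% with a shift of 1, against 1.57% of unshifted transcripts. Each transcript was drawn independently there, so the simulation left out the variation that genes share between piglets.

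Described in full were the members past the filter, of each role the member with the smallest p, the 5 members with the largest differences that missed the p threshold, the 5 with the highest mean and other transcripts of a called member. The remaining members are given by their difference, and the signals of ATR, TERF1 and TERT were added after their values were seen. From each list outside the rule up to 4 called genes with the smallest p were named with values. The remaining called repair genes, NOP10, NAF1 and the p53 targets CDKN1A and MDM2 were added after their values were seen. So were the called Kupffer cell markers and the markers TFRC and MARCO. The members and the gene lists were chosen with earlier results of these data known. Alternatives were the methods' t-test, an intensity trend with robust eBayes, array weights, removal of the dimmest 25% of transcripts, further quantile normalisation, median centring, the replicate number as a block, the division markers as a covariate, the mean of all transcripts of a symbol, fold changes above 1.5 or without a threshold, and leaving out each piglet. Plots used matplotlib 3.10.9 under Python 3.11.15. The labels name no batch for the arrays. The sample titles carry a number per piglet, and the numbers of the groups do not overlap in range. What these numbers stand for (litter, tag or batch) is not stated. A litter or batch effect along them could not be told apart from the group. No sequence is shown.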

Additional observations from a re-analysis of the deposited data

Results flagged for a closer look

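Within-group values of all 52 members were checked for single piglets far from the other 5 of their group, over 104 groups of 6 piglets. Chance alone marks about 1 in 20 groups, and 5 were marked. In the SINS high group, WRN was at 6.08 in replicate 3, with the others at 6.77 to 6.95, FANCG was at 4.57 in replicate 5, with the others at 5.0 to 5.21, and XRCC6 was at 5.54 in replicate 2, with the others at 6.07 to 6.27. RAD17 was at 5.54 in SINS high replicate 6, above the 4.95 to 5.15 of the others. In the SINS low group, PINX1 was at 5.90 in replicate 6, above the 5.36 to 5.52 of the others. The cause of these values was not tested.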

How the results depend on the processing

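The number of down-regulated members, 10 with all arrays, was 6 with the methods' t-test (all 6 among the 10; 2.99% of all genes), 16 with array quality weights (4.12%), 3 with the division markers as a covariate and 3 at a fold change above 1.5 (1.19%). Leaving out 1 piglet gave 5 to 18 down-regulated members and 0 to 1 up-regulated members. XPC was the up-regulated one, and it also made 1 without a fold change threshold. The median over the members stayed between −0.21 and −0.13 under every alternative. APEX1, FANCM and MRE11 passed in all 21 alternative comparisons that kept the 1.3 threshold, of which 12 left out 1 piglet, RAD54L and XRCC2 in 20, FANCD2, RAD51C and UNG in 15, PINX1 in 14 and PARP2 in 8. In the t-test, 0 transcripts had an adjusted p below 0.05.

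Members close to 0 changed sign. With the covariate, the log2(FC) was −0.04 for FANCF, 0.01 for MSH3, RAD1 and RAD17, 0.15 for POT1 and 0.03 for WRN. For RAD21L1 it was −0.02 after further quantile normalisation and −0.01 after median centring. Leaving out 1 piglet gave −0.04 to 0.14 for FANCF, −0.08 to 0.06 for MSH3, −0.15 to 0.09 for POT1, −0.11 to 0.04 for RAD1, −0.02 to 0.03 for RAD21L1, −0.02 to 0.10 for RAD51AP2, −0.02 to 0.11 for TERT and −0.13 to 0.05 for WRN.

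The replicate numbers of the labels are not stated to pair the piglets. Same-numbered piglets correlated at −0.000303 to 0.341 in their deviations, and 3 of 12 arrays correlated best with their own number. With the replicate number as a block, 14 members were down-regulated (4.13% of all genes). The cause of the changes was not tested, except that fewer arrays or a stricter threshold enter by construction.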
